A study of Rattus norvegicus with 2 samples.

Results

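The inhibitors of the cyclin-dependent kinases of the INK4 and KIP families, with the retinoblastoma gene that they act through, were followed across the cell types of rat meniscus, a pad of fibrocartilage in the knee joint, in 1 aged and 1 young library. The set held 6 of the 25399 genes listed in the files, matched by gene symbol. They were Cdkn2a (ENSRNOG00000059837), Cdkn2b (ENSRNOG00000006735), Cdkn2c (ENSRNOG00000008956), Cdkn1b (ENSRNOG00000007249), Cdkn1c (ENSRNOG00000059500) and Rb1 (ENSRNOG00000016029). They were chosen from earlier results of the same libraries, with their levels and detection across these cell types known, in particular those of Cdkn2b in neutrophils and Cdkn2a in cycling cells. Their values are therefore a description and carry no test.

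The aged group was meniscus of aged rats and the young group meniscus of young rats, with 1 droplet library of dissociated and sorted viable cells in each. The labels give no age in months, strain, sex or number of animals per library. With 1 library per age, a difference between ages cannot be told apart from a difference between these preparations, and every interval below covers counting error only. The aged library had 8422 barcodes and 47228750 unique molecular identifiers (UMIs, counts of single captured RNA molecules), and the young library had 9914 barcodes and 65051972 UMIs. Of these, 6085 aged and 8773 young cells were kept, with median depths of 3686 and 3846 UMIs. The libraries shared 18 barcodes.

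Cells progress from the first gap phase into DNA synthesis when cyclin D with Cdk4 or Cdk6 phosphorylates the RB protein and frees the E2F transcription factors. The INK4 proteins (p16, p15 and p18, from Cdkn2a, Cdkn2b and Cdkn2c) bind Cdk4 and Cdk6 and block this step. The KIP proteins p27 (Cdkn1b) and p57 (Cdkn1c) bind a wider range of cyclin and kinase complexes. In cartilage, p57 is known from chondrocytes that leave the cell cycle, and p16 is widely used as a marker of senescence. Cdkn2a also encodes p19Arf from another first exon in rodents, and counts per gene do not separate its transcripts.

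Sequences upstream of the INK4 genes are shown because these related genes differed in the cells that held most of their counts, neutrophils for aged Cdkn2b and cycling cells for Cdkn2c. Of the 6 genes, 5 had an entry in the RefSeq promoter table (build GRCr8), and the 250 bases before the listed start are given 5′ to 3′ on the strand of the gene. Cdkn2a and Cdkn2b lie on the same chromosome with 1 listed gene between them. Capitals mark the ATF/CREB word TGACGTCA or an E2F word (TTTCCCGC, TTTCGCGC, TTTGCCGC, TTTGGCGC or GGCGGGAA) on either strand.
Cdkn2a, chr5:109107957-109108206, minus strand: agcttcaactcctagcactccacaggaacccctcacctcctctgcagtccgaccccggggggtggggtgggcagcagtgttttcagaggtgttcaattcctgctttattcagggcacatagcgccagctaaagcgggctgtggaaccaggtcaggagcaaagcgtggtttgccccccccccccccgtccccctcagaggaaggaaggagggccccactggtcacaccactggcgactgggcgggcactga
Cdkn2b, chr5:109134856-109135105, minus strand: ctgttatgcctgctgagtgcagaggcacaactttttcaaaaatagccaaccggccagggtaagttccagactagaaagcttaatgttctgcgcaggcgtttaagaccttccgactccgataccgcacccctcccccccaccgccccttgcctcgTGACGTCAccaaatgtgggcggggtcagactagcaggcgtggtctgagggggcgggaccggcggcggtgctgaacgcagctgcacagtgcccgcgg
Cdkn2c, chr5:129644892-129645141, minus strand: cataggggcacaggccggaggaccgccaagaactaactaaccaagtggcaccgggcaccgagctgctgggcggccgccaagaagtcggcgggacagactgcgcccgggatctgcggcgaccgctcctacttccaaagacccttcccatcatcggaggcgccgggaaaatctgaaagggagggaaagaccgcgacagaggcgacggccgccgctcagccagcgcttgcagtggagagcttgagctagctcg

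The window of Cdkn2b held TGACGTCA from base -96 to base -89, counted from the start, as did 1.59% of 33469 promoters of the same length. The Cdkn2a and Cdkn2c windows held none of these words. Among the genes not printed, Rb1 held GGCGGGAA on the opposite strand from base -113 to -106, a word present in 1.52% of promoters. The other 4 E2F words together were present in 1.73% of promoters. The GC box GGGCGG, which is not in capitals, was found 6 times before Rb1, where 1 of them overlaps the E2F word, 3 times before Cdkn2b, once each before Cdkn2a, Cdkn2c and Cdkn1b, and in 30.5% of promoters. The words were chosen with the sequences in view.

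Cells were sorted into types by the raw counts of 1 or 2 marker genes each. Cells with at least 2 UMIs of Top2a, a topoisomerase made from DNA synthesis to mitosis, formed the cycling gate of 1061 aged and 1442 young cells. All other gates required Top2a at 0 and are called resting. They took 679 aged and 960 young neutrophil lineage cells (S100a8), 377 and 296 monocytes or macrophages (Csf1r), 186 and 77 T cells (Cd3e), and 512 and 171 stromal cells (Dcn or Chad with Ptprc at 0). The B lineage gate first set (at least 2 UMIs of Cd79a and 0.05% of UMIs) took 33 aged and 485 young cells, and the plasma cell gate (Jchain) took 2 and 3. Both were therefore widened after the data were seen, to 1 UMI of Cd79a and 5 UMIs of Jchain, which took 365 and 2257 B lineage cells and 325 and 25 plasma cells. Another 2259 aged and 2862 young cells passed no gate. Cycling cells were called myeloid with S100a8 at 2% of UMIs or more, the rule of the neutrophil gate, or with at least 3 UMIs of Mpo plus Elane.

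Marker genes other than those of the gates were counted in each gate. In the neutrophil gate 7 of 8 neutrophil markers were present in at least 10% of cells of either library, and all 7 were at least 1.5-fold higher than in the other cells. The same held for 5 of 7 B lineage markers in the B gate and for all 7 listed stromal markers in the stromal gate. Of 7 chondrocyte markers, 5 passed in the 38 aged and 7 in the 104 young stromal cells with at least 3 UMIs of Chad. In cycling B lineage cells 4 of 4 present B lineage markers passed in the aged and 0 of 5 in the young library, and in cycling myeloid cells 2 of 6 present neutrophil markers passed in each library, so these lineage names rest mainly on the gate genes. Stromal cells were 8.41% of aged and 1.95% of young kept cells, so most cells of both meniscus libraries were blood-lineage cells or in no gate.

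Each inhibitor had its own distribution over these types. Of 405 Cdkn2b UMIs in aged cells, 53.3% lay in neutrophils, which held 5.23% of all aged UMIs. Of the Cdkn2a UMIs, 49.2% of 179 among aged and 68.3% of 63 among young cells lay in cycling cells, which held 31.2% of aged and 39.7% of young UMIs. Cycling cells also held 67.6% of aged and 84.8% of young Cdkn2c UMIs. Stromal cells held 73.4% of 926 aged and 45.2% of 1198 young Cdkn1c UMIs. Cdkn1b was spread more widely, with 36.7% of its aged and 34.6% of its young UMIs in cycling cells, near the share of all UMIs held there. Cycling cells held 56.7% of aged and 47.3% of young Rb1 UMIs.

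**Figure D1:**
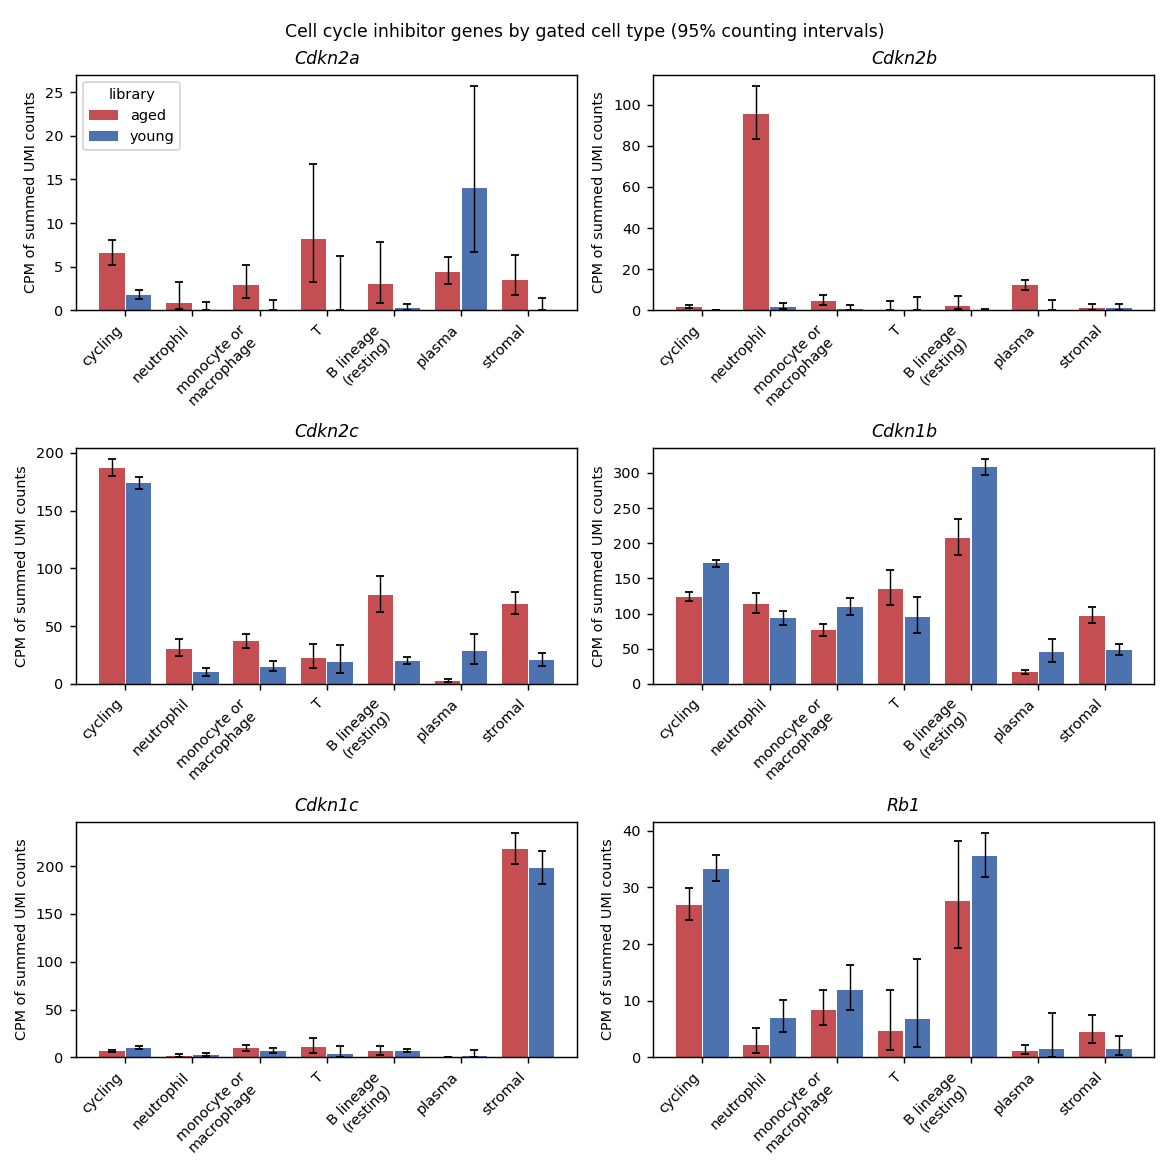
CPM (UMI counts of a gene scaled to a library part of 1000000 UMIs, vertical axis) of each gene in 7 gates, aged bars left of young bars, with 95% exact Poisson intervals of the summed counts. Cdkn2b stands at 95.6 CPM in aged neutrophils, Cdkn2c is highest in cycling cells and Cdkn1c in stromal cells of both libraries; the young plasma bars rest on 25 cells.

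Cdkn2b, the gene of p15, in neutrophils had the largest ratio between the libraries among the 24 pairs of gene and gate compared. Neutrophils held 216 Cdkn2b UMIs in the aged library and 6 in the young one. CPM, the counts of a gene per 1000000 UMIs of the gate, was 95.6 CPM (95% interval 83.3 to 109) among aged and 1.60 CPM (0.586 to 3.47) in young neutrophils. The log2 ratio of aged over young was 5.90 (4.76 to 7.37), or 59.9-fold. The aged UMIs were spread over 137 cells, with at most 5 in any cell, so that no single cell carried the level. For scale, 9.71% of 6913 genes with at least 20 summed counts were at least 1.5-fold higher in aged neutrophils and 36.2% were at least 1.5-fold lower. Since the gene was chosen for this difference, these shares are given for reading only.

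Shares of cells with a UMI gave the same picture at equal depth. After each cell was thinned to 2000 UMIs, Cdkn2b was present in 16.4% of aged neutrophils (13.4 to 19.7) and in 0.499% of young ones (0.136 to 1.27). Thinning left out 117 aged and 158 young cells as too shallow. Without thinning the shares were 20.2% among aged and 0.625% in young neutrophils, at median depths of 2941 and 3385 UMIs. Resting B lineage cells, taken as a type that should lack the gene, had it in 0.822% of aged and 0.0886% of young cells at median depths of 2179 and 3391 UMIs. After thinning it was in 0.467% of aged B lineage cells and in 0 of 2178 young ones, which allows a share of up to 0.138%. The aged neutrophil share lay above the aged background. The young neutrophil share of 0.499% lay above the young limit of 0.138%, and the lower end of its interval, 0.136%, was close to that limit.

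Cdkn2b was found at both stages of neutrophil maturation that could be gated. Granule-rich cells, in which the granule genes Camp, Ltf and Ngp made up at least 1% of UMIs and which are the less mature, had 71.4 CPM among aged (58.0 to 87.0) and 1.23 CPM among young cells. Granule-poor cells had 133 CPM among aged (110 to 159) and 2.27 CPM among young cells. The aged over young log2 ratios were 5.86 (4.27 to 8.16) and 5.87 (4.29 to 8.17). The intervals of both aged levels did not overlap.

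A split by Il1b, an inflammatory cytokine gene of activated neutrophils, was added after the data were seen. The 413 aged neutrophils with Il1b had 144 CPM of Cdkn2b (123 to 167), and the 266 aged neutrophils without it had 37.9 CPM (27.0 to 51.8). In the young library the 346 cells with Il1b had 0 counts, which allows a share of up to 0.867%, and the 614 cells without it had 2.18 CPM (0.801 to 4.75). The interval of these 0 counts reached 3.65 CPM and overlapped that of the young cells without Il1b. With so few young counts, the 2 young parts could not be told apart.

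**Figure D2:**
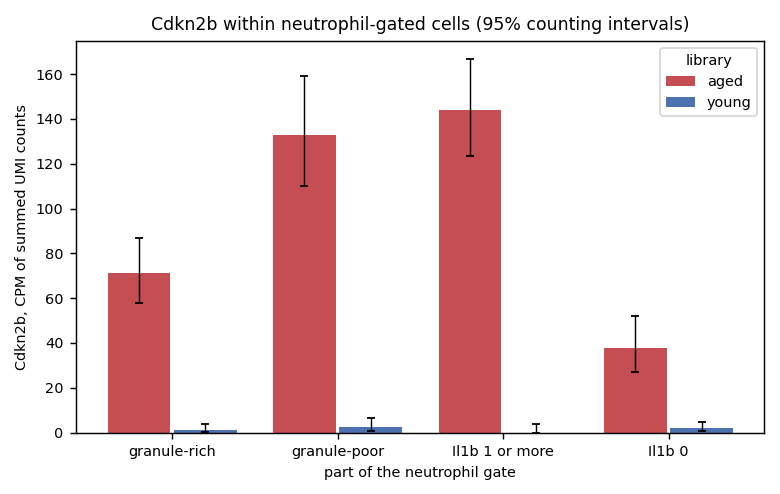
CPM of Cdkn2b (vertical axis) in parts of the neutrophil gate, aged bars left of young bars, with 95% exact Poisson intervals. Aged bars run between 37.9 and 144 CPM, and young bars stay at or under 2.27 CPM in every part.

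Outside neutrophils Cdkn2b was low, and among gates with at least 50 aged cells plasma cells were next in order. The 32 aged erythroid cells held 5 UMIs, or 15.1 CPM (4.90 to 35.2). Aged plasma cells held 97 UMIs in 65 of 325 cells, or 12.2 CPM (9.88 to 14.9). The 25 young plasma cells held 0, where 3 counts would be 4.20 CPM. The median aged plasma cell had 24302 UMIs, so its share of 20% of cells with a UMI dropped to 2.77% after thinning. S100a8, an abundant neutrophil RNA, was present in 68.6% of aged plasma cells, and the ratio of both RNAs differed between the types. Aged neutrophils had 0.596 Cdkn2b UMIs per 1000 S100a8 UMIs (0.519 to 0.681), and aged plasma cells had 68.5 (55.6 to 83.6). The 102 aged plasma cells without any S100a8 had 13.2 CPM of Cdkn2b (8.82 to 18.9). The part of RNA from other cells in these Cdkn2b counts was not tested.

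Monocytes or macrophages held 18 Cdkn2b UMIs among aged and 2 among young cells, or 4.71 and 0.657 CPM. T cells held 0 UMIs in both libraries. Cycling cells held 24 UMIs among aged and 1 among young cells, and 14 of the 24 aged UMIs lay in 5 cells. Stromal cells held 4 UMIs among aged and 3 among young cells, so that no Cdkn2b difference was detectable at this depth in the cells that make meniscus matrix.

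Cdkn2a, the p16 and p19Arf gene, was sparse in every gate, and cycling cells held the largest share of its UMIs. The cycling gate held 88 UMIs in the aged and 43 in the young library, which was 6.52 CPM (5.23 to 8.04) among aged and 1.75 CPM (1.27 to 2.36) among young cells. The log2 ratio was 1.89 (1.35 to 2.46), or 3.72-fold, in a comparison in which 12.8% of 11232 genes were at least 1.5-fold higher and 15% at least 1.5-fold lower. The UMIs lay in 64 aged cells, the top one holding 6.82% of them, and in 40 young cells.

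At equal depth Cdkn2a was present in 1.92% of aged (1.18 to 2.95) and 0.629% of young cycling cells (0.288 to 1.19). The unthinned shares were 6.03% and 2.77%, at median depths of 9663 and 12668.5 UMIs. In resting neutrophils, taken as background, thinned cells had it in 0.178% of the aged library and in 0 of 802 cells of the young one, which allows up to 0.374%. The young cycling share and this limit lie close together, and their intervals overlap.

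Among aged cycling cells the B lineage had more Cdkn2a than the myeloid cells. Cycling B lineage cells had 13.3 CPM among aged (9.33 to 18.4) and 1.92 CPM among young cells (1.24 to 2.83), from 36 and 25 UMIs. The log2 ratio was 2.80 (2.02 to 3.59), while 8.1% of genes in these cells were at least 1.5-fold higher and 15.2% lower in the aged library. Cycling myeloid cells had 0 UMIs in 124 aged cells and 1 UMI in 130 young cells. In aged cycling B lineage cells with the surrogate light chain (Igll1, Vpreb1 or Vpreb2), which marks precursors before a complete antibody receptor, 88 cells held 24 UMIs, or 15.2 CPM (9.76 to 22.7). The 296 young cells of that stage held 7 UMIs, or 0.954 CPM (0.384 to 1.97).

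Cdkn2a was also counted in aged resting cells of types in which the young library had none. Aged T cells held 7 UMIs and young T cells 0, so that the aged level was at least 1.60-fold higher when the young one was set to 3 counts. Aged stromal cells held 11 UMIs in 9 cells and young stromal cells held 0, at least 3.21-fold higher by the same floor. All 11 aged stromal UMIs lay in cells outside the Chad group, and Chad-positive cells had 0 in 38 aged and 0 in 104 young cells. Aged monocytes or macrophages held 11 UMIs against 0 in young ones, but 8 of the 11 lay in 1 cell, and no ratio is given without it. Plasma cell markers made up 0.0648% of aged and 0.00681% of young UMIs in the T cell gate. In monocytes or macrophages they made up 0.0581% of aged and 0.0141% of young UMIs, and in stromal cells 0.0259% and 0.0325%. Jchain was present in 4.30% of aged and 0% of young T cells, and in 6.37% of aged and 1.69% of young monocytes or macrophages. These gates were not cleared of cells that also passed the widened plasma gate. The part of such cells or of plasma cell RNA in these Cdkn2a counts was not tested. Plasma cells had 4.40 CPM among aged (3.06 to 6.11) and 14.0 CPM among young cells (6.71 to 25.7), the young value from 10 UMIs in 25 cells. Over the 7 gates with at least 50 aged cells, levels ran between 8.16 CPM in T cells and 0.885 CPM in neutrophils, and each gate overlapped the next in its interval. The interval of aged cycling cells did not overlap that of aged neutrophils.

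Cdkn2c, the gene of p18, was highest in cycling cells in both libraries. The cycling gate had 187 CPM among aged (180 to 194) and 174 CPM among young cells (169 to 179), present in 81.1% and 83.0% of cells. In the B lineage of the aged library, cycling cells had 243 CPM and resting cells 76.7 CPM, for a log2 ratio of 1.66 (1.36 to 1.98). In the young library, cycling B lineage cells had 197 CPM and resting ones 20 CPM, for a log2 ratio of 3.30 (3.09 to 3.53). The first B gate gave 3.88 (2.61 to 5.01) in the young library from 5 cycling cells, and its 1 aged cycling cell held 0 UMIs. Of all genes, 22.5% in the aged and 11.3% in the young B lineage were at least 2-fold higher in cycling cells, and 2 of the 5 members tested in each library passed that fold, Cdkn2a and Cdkn2c. The Cdkn2a ratio was 2.12 (0.64 to 4.07) in the aged library, from 36 cycling and 4 resting UMIs. In the young library it was 3.16 (1.16 to 6.29), from 25 and 2 UMIs. Among young surrogate light chain cells Cdkn2a had 7 cycling and 1 resting UMI, for a ratio of 0.66 (-2.30 to 6.16). None of the 5 was at least 2-fold lower, as 5.66% of genes in the aged and 14.6% in the young library were. TMM scaling moved these ratios by -0.30 in the aged and 0.15 in the young library. Among surrogate light chain cells alone the Cdkn2c ratio was 0.97 (0.38 to 1.62) in the aged and 2.34 (1.94 to 2.77) in the young library.

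The same direction was seen in other lineages. Cycling myeloid cells had 98.1 CPM among aged and resting neutrophils 30.5 CPM, for a log2 ratio of 1.68 (1.29 to 2.09), and the young values were 67.2 and 10.1 CPM, for a log2 ratio of 2.73 (2.22 to 3.28). These 2 gates follow different rules and differed in neutrophil markers. S100a9 was 12397 CPM in cycling myeloid cells and 102175 CPM in neutrophils of the aged library, and 17525 and 123854 CPM in the young one. The part of cell stage in these ratios was not tested. In young erythroid cells, cycling cells had 141 CPM and resting cells 24.1 CPM. A large part of all genes moved that way in these lineages, with 56.4% (aged neutrophil lineage), 50.1% (young neutrophil lineage) and 74.1% (young erythroid) at least 2-fold higher in cycling cells, and 12.3%, 13.5% and 2.93% at least 2-fold lower. The median log2 ratio of all genes was 1.32 in the aged and 1.00 in the young neutrophil lineage and 1.76 in young erythroid cells, beside 1.68, 2.73 and 2.55 for Cdkn2c.

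**Figure D3:**
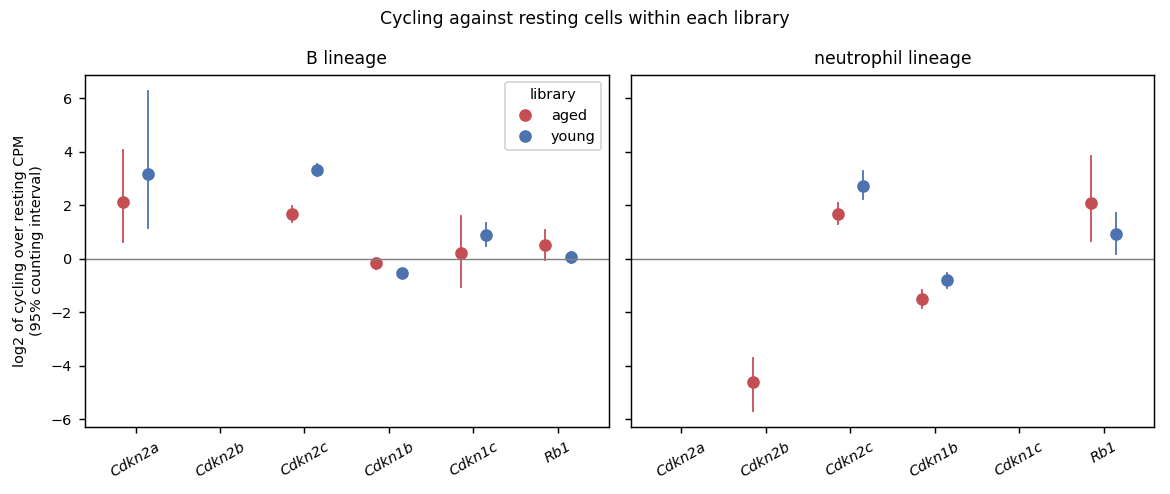
The log2 ratio of cycling over resting CPM (vertical axis) for each gene within the aged and the young library, with 95% exact conditional binomial intervals, shown where the summed counts reach 20. In the B lineage Cdkn2c lies at 1.66 in the aged and 3.30 in the young library, and in the neutrophil lineage Cdkn1b lies under 0 in both libraries. The neutrophil lineage panel sets cycling myeloid cells against resting neutrophils, gates with different rules.

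The smaller aged ratio went with a higher Cdkn2c level in resting aged cells. Resting B lineage cells had 76.7 CPM among aged (62.4 to 93.3) and 20 CPM among young cells (17.2 to 23.1), for a log2 ratio of 1.94 (1.57 to 2.30), with values between 1.22 (thresholds doubled) and 2.69 (without the deepest cells) under the alternative settings. Of 9523 genes, 4.76% were at least 1.5-fold higher in the aged B lineage gate, and 38.6% were at least 1.5-fold lower. The gate also differed between the libraries in its markers. The B lineage list made up 0.258% of aged and 0.467% of young UMIs, the erythroid list 0.217% and 0.0523%, the plasma list 0.105% and 0.0432%, and the stromal list 0.00828% and 0.133%. The erythroid list includes Hbb, which was 194468 CPM in aged and 2865 CPM in young erythroid-gated cells, where Hba-a1 was 163705 and 229690 CPM. Its sum is therefore not comparable between the libraries. The part of other cell types or their RNAs in the Cdkn2c and Cdkn1b differences was not tested. Stromal cells had 69.2 CPM among aged and 20.9 CPM among young cells, for a log2 ratio of 1.73 (1.30 to 2.18), with 20.5% of genes at least 1.5-fold higher and 16.2% lower. Monocytes or macrophages had 36.9 CPM among aged and 14.8 CPM among young cells (log2 ratio 1.32), with 9.37% of genes higher and 29.2% lower. Neutrophils had 30.5 CPM among aged and 10.1 CPM among young cells (log2 ratio 1.60). T cells had 22.1 CPM among aged and 18.7 CPM among young cells, and the interval of their ratio included no change.

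Detection followed the levels. After thinning, Cdkn2c was present in 16.8% of aged (12.1 to 22.5) and 3.72% of young resting B lineage cells (2.96 to 4.60), and in 4.98% of aged and 1.87% of young neutrophils, its background type. B lineage cells outside the surrogate light chain and Ms4a1 groups had 90.3 CPM among aged and 17.7 CPM among young cells. Cells with Ms4a1, a gene of mature B cells, had 17.6 CPM among aged (5.71 to 41.1) and 17.1 CPM among young cells (11.9 to 23.8), with intervals that overlapped. Among stromal cells the higher level lay in the Dcn group, with 74.5 CPM among aged and 14.2 CPM among young cells. Chad-positive cells had 11.4 CPM among aged and 26.1 CPM among young cells, from 3 UMIs in 38 and 40 UMIs in 104 cells. Their log2 ratio was -1.19 (-3.53 to 0.46), an interval that included 0. Chad-positive cells were 38 of 512 aged and 104 of 171 young stromal cells. The part of this make-up in the stromal Cdkn2c ratio was not tested.

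Cdkn1b, the gene of p27, was highest in resting B lineage cells and was lower in cycling myeloid cells than in resting neutrophils. Resting B lineage cells had 208 CPM among aged (184 to 234) and 308 CPM among young cells (297 to 319), for a log2 ratio of -0.57 (-0.75 to -0.39). It ranged between -1.20 (thresholds doubled) and -0.15 (mean of per-cell CPM). With TMM scaling it was -0.20 (-0.39 to -0.024), beside a median of -0.43 for all genes in this gate. In stromal cells the ratio was above 0, with 97.1 CPM among aged (86.5 to 109) and 48.3 CPM among young cells (40.4 to 57.3), for a log2 ratio of 1.01 (0.71 to 1.31). Cycling cells had 124 CPM among aged and 171 CPM among young cells, monocytes or macrophages 76.1 CPM among aged and 109 CPM among young cells, and T cells 135 CPM among aged and 95.3 CPM among young cells. Log2 ratios of cycling myeloid cells over resting neutrophils were -1.51 (-1.85 to -1.17) in the aged and -0.80 (-1.09 to -0.52) in the young library. As given above, these gates also differed in neutrophil markers. In the young B lineage the ratio was -0.55 (-0.63 to -0.48), and in the aged B lineage -0.18 with an interval that included 0. Aged plasma cells had the lowest CPM of the aged gates, 16.2 CPM (13.5 to 19.2), and young plasma cells had 44.8 CPM. The median aged plasma cell had 24302 UMIs and 1397 genes. These 325 cells held 129 Cdkn1b UMIs, beside 258 UMIs in 679 aged neutrophils. CPM is a share of all UMIs of a gate, and the part of this in the order of gates was not tested.

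Cdkn1c, the gene of p57, was a stromal gene in both libraries at similar summed levels. Stromal cells held 680 UMIs among aged and 541 among young cells, or 218 CPM (202 to 235) among aged and 198 CPM (182 to 215) among young cells, for a log2 ratio of 0.14 (-0.03 to 0.30), which was -0.037 with means of per-cell CPM. Among gates with at least 50 cells in the library, the next aged gate was T cells at 10.5 CPM, with 77.8% of it from 1 cell, and the next young gate was cycling cells at 10.1 CPM. The 36 aged and 11 young endothelial cells held 4 and 2 UMIs. Monocytes or macrophages had 9.67 CPM among aged and 6.57 CPM among young cells, and neutrophils 1.33 CPM among aged and 2.39 CPM among young cells. Resting B lineage cells, its background type, had 6.14 CPM among aged and 6.74 CPM among young cells. After thinning, Cdkn1c was present in 30.9% of aged stromal cells (26.8 to 35.3) and 11.7% of young ones (7.29 to 17.5), against 1.40% of aged and 1.19% of young B lineage cells. The unthinned stromal shares were 46.1% at a median of 5820.5 UMIs and 38.6% at 15309 UMIs.

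The young sum rested on few cells. The top young cell held 192 UMIs and the next 115 of the 541, while the top aged cell held 19 of the 680. Without the top cell the young level was 128 CPM (115 to 143). Both of these young cells were Chad-positive, with 41 and 92 UMIs of Col2a1, the main collagen of cartilage. Chad-positive cells had 179 CPM among aged (132 to 238) and 299 CPM among young cells (272 to 327), and the remaining Dcn cells had 221 CPM among aged (205 to 239) and 69.3 CPM among young cells (55.2 to 85.9). Of the 83 UMIs of these young cells 30 lay in 1 cell, without which the level was 44.7 CPM, and that cell also had 21 UMIs of Col2a1 and 470 of Prg4, the lubricin gene. Seen by number of cells, 46.2% of aged and 29.9% of young Dcn cells had a UMI, and 44.7% of aged and 44.2% of young Chad-positive cells. These shares were not thinned to equal depth. Median depths were 5811.5 UMIs in aged and 17574 in young Dcn cells, and 6164.5 in aged and 14793.5 in young Chad-positive cells.

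**Figure D4:**
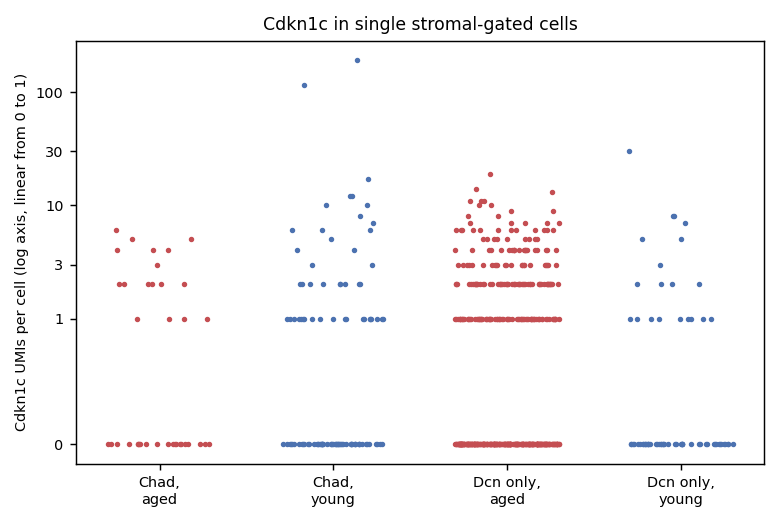
UMIs of Cdkn1c in each stromal-gated cell (vertical axis, logarithmic above 1), one point per cell, for Chad-positive and other Dcn cells, aged left of young. The 192 and 115 UMIs of the top young Chad-positive cells stand apart, and the highest aged cell has 19.

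Rb1, whose protein the INK4 inhibitors keep active, followed the B lineage and the cycling cells. It had 27.6 CPM among aged (19.3 to 38.2) and 35.6 CPM in young resting B lineage cells (31.9 to 39.7), and 26.9 CPM among aged and 33.3 CPM in young cycling cells. As a share of the UMIs of a gate it was lowest in plasma cells. These had 1.13 CPM among aged cells, from 9 UMIs, and 1.40 CPM among young cells, from 1 UMI. Neutrophils had 2.21 CPM among aged and 6.92 CPM among young cells, for a log2 ratio of -1.64 (-3.38 to -0.24) from 5 and 26 UMIs. With TMM scaling it was -1.32 (-3.06 to 0.084), an interval that included 0, in a gate in which 36.2% of genes were at least 1.5-fold lower. Monocytes or macrophages had 8.37 CPM among aged and 11.8 CPM among young cells, and T cells 4 UMIs in each library. In stromal cells 14 aged and 4 young UMIs were counted, and the interval of the ratio included no change.

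Across the 6 resting or cycling gates with at least 50 cells in each library, 24 pairs of gene and gate had at least 20 summed counts. Of these, 9 were at least 1.5-fold higher in the aged library, and 2 were at least 1.5-fold lower. The 9 were Cdkn2b in 3 gates, Cdkn2a in cycling cells, Cdkn2c in 4 gates and Cdkn1b in stromal cells, and the 2 were Cdkn1c in cycling cells and Rb1 in neutrophils. Of all genes, the share higher was 12.8% in cycling cells, 9.71% in neutrophils, 9.37% in monocytes or macrophages, 4.76% in resting B lineage cells and 20.5% in stromal cells, and the share lower was 15%, 36.2%, 29.2%, 38.6% and 16.2% in the same order. No member passed that fold in T cells, where 9.38% of genes were higher and 36.5% lower. The median log2 ratio of all tested genes was itself under 0 in neutrophils (-0.34), monocytes or macrophages (-0.32), T cells (-0.38) and resting B lineage cells (-0.43). Scaling by TMM raised the ratios of these 4 gates by 0.32, 0.31, 0.42 and 0.36. The Rb1 ratio of resting B lineage cells (-0.37) was about as large as the shift of 0.36 in that gate. Cdkn1c in cycling cells had 6.52 CPM among aged and 10.1 CPM among young cells, and its log2 ratio of -0.63 became -0.57 with TMM, which is under the 1.5-fold limit.

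**Figure D5:**
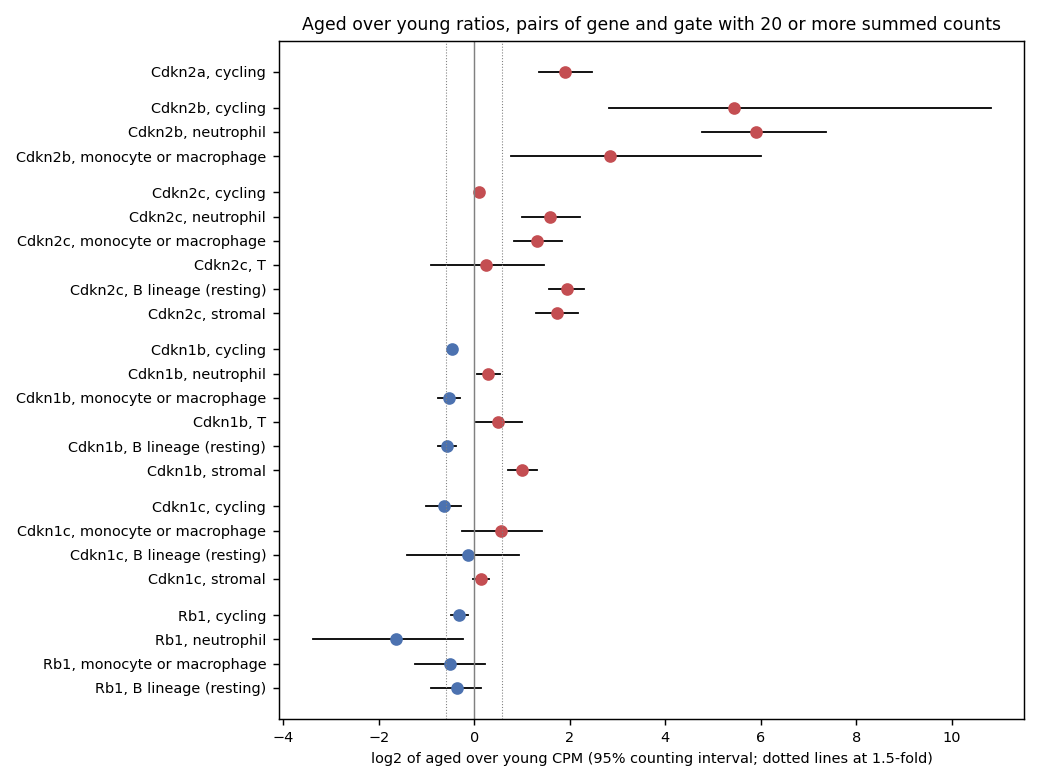
The log2 ratio of aged over young CPM (horizontal axis) for the 24 pairs of gene and gate with at least 20 summed counts, with 95% exact conditional binomial intervals and dotted lines at 1.5-fold. Cdkn2b in neutrophils lies at 5.90, Cdkn2c lies over 1 in 4 gates, and Cdkn1b lies on both sides of 0.

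Other genes of the pathway gave the context of the cycling cells. Of 27 listed genes of the kinases, cyclins, RB and E2F families, 22 in the aged and 25 in the young library were tested between cycling and resting B lineage cells. In the aged library 17 and in the young library 15 were at least 2-fold higher in cycling cells, 14 of them in both, and 0 were 2-fold lower. Of all genes, 22.5% in the aged and 11.3% in the young library were higher by that fold, and 5.66% and 14.6% were lower. The medians of the list were 1.73 in the aged and 1.27 in the young library on the log2 scale, beside 0.39 and -0.12 for all genes tested. The mitotic kinase Cdk1 had log2 ratios of 4.82 in the aged and 4.72 in the young library, and its partner Ccna2 had 5.17 and 4.48. The cycling gate was drawn on Top2a, and both genes were among its check markers, so these ratios are no separate finding. E2f8, a repressor among the E2F factors, had 62 UMIs in cycling and 0 in resting aged cells, a log2 ratio of at least 3.32 with the floor of 3 counts, and 4.36 in the young library, and the kinase subunit Cks1b had 2.65 and 3.22. Of the known regulators of the inhibitors, 24 in the aged and 28 in the young library were tested. In each library 2 were at least 2-fold higher, beside 22.5% of all genes in the aged and 11.3% in the young library. At least 2-fold lower were 2 in the aged and 6 in the young library, beside 5.66% and 14.6% of all genes. The higher 2 were the Polycomb genes Ezh2 (1.90 and 1.87) and Suz12 (1.62 and 1.17), whose complex is known to silence the Cdkn2a locus. Cdkn2d was not analysed here.

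Between ages, 1 of 25 tested genes of the kinase and E2F list was at least 1.5-fold higher and 7 were lower in aged cycling cells, with a list median of -0.38 on the log2 scale beside -0.09 for all genes. Of all genes in cycling cells, 12.8% were higher and 15% lower. In resting B lineage cells 1 of 23 was higher and 6 were lower, with a median of -0.21 beside -0.43 for all genes, of which 4.76% were higher and 38.6% lower. In stromal cells 3 of 16 were higher and 4 lower, with a median of -0.17 beside 0.071 for all genes, of which 20.5% were higher and 16.2% lower.

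The genes whose levels were most like each member were ranked among 8948 genes by the Pearson correlation of log2(CPM + 1) over 14 gates of the 2 libraries, values that share libraries and are given as a description. For Cdkn2b these were Acod1 (0.78), an enzyme gene of activated myeloid cells, Glipr2 (0.76) and Stfa2 (0.73). For Cdkn2a they included Tnfrsf17 (0.78), a receptor gene of plasma cells, and Odc1 (0.75). Cdkn2c was most like Itgb3bp (0.91), a centromere protein gene, Ccdc34 (0.89) and Magi3 (0.89). Cdkn1c was most like Tgfbr3 (0.96), Prtfdc1 (0.96) and Islr (0.95), and Cdkn1b most like Cir1 (0.95), Vcpip1 (0.93) and Gpbp1l1 (0.93). Rb1 was most like Bcl11a (0.95), a B lineage transcription factor gene, Tifa (0.95) and Pold1 (0.94). Among the members themselves Cdkn1b and Rb1 were the most alike (0.79), and the neighbours Cdkn2a and Cdkn2b had 0.17.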

How the data were processed

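Dissociated rat meniscus was measured by droplet 3' single-cell RNA sequencing (10x Genomics), per the labels' protocols, in 1 aged and 1 young library. The deposited matrices hold raw UMI counts per gene and barcode, made with Cell Ranger 6.1.1, per the file headers and the submitters' processing notes; neither the genome build nor the annotation is named in the sources used here. The members and lists were chosen with earlier results of these data known.

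Barcodes needed 500 or more genes and no more than 20% mitochondrial UMIs. Gates used raw marker counts, and a cell that passed more than 1 lineage gate was left out as mixed. For gates other than B lineage and plasma this used the first B lineage and plasma gates, which left out 54 aged and 80 young cells. The widened gates, with 100 aged and 154 young mixed cells, served only for the B lineage and plasma cells themselves. Cells that also passed a widened gate could therefore stay in the other gates. The cycling gate was not cleared of mixed cells. Leaving out mixed cells was the treatment of doublets, and no doublet caller was run. Stromal cells needed at least 3 UMIs of Dcn plus Chad, neutrophils S100a8 at 2% of UMIs or more. Counts were summed per gate and library and scaled to CPM, with exact Poisson intervals. Shares carry Clopper-Pearson intervals, a share of 0 the limit that 3 cells allow, and ratios exact conditional binomial intervals, all at 95% and for counting error only. Counts of 1 gene clump in single cells, which these intervals do not cover. A count of 0 was set to a floor of 3 counts per library and gate, and no fold was given where both were at or under 3. No test was made, since each age had 1 library.

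The rule named all 6 members in every gate, and the text gives the gates with enough counts. Pathway genes were named when at least 2-fold apart between cycling and resting B lineage cells in both libraries, up to 4 per list and direction, and like genes were the 3 with the highest correlation, of which 1 is not reported here. The tools were scipy 1.17.1 with numpy 2.4.6 and pandas 2.3.3 in Python 3.11.15, matplotlib 3.10.9, and, in R 4.3.3, edgeR 4.0.16 (TMM scaling) and DESeq2 1.42.0 (median-of-ratios scaling). The ratio interval was tested only on simulated independent Poisson counts. Such counts do not clump in single cells, so that check does not show how the interval performs on these data. Alternatives covered the cell filter, gate thresholds, mixed cells, the deepest cells, per-cell means, thinning, scaling and the count minimum.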

Additional observations from a re-analysis of the deposited data

Results flagged for a closer look

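Cdkn1b differed in direction between cell types. Its log2 ratio of aged over young was 1.01 (0.71 to 1.31) in stromal cells and -0.57 (-0.75 to -0.39) in resting B lineage cells, with intervals on opposite sides of 0. The median of all genes was 0.071 in stromal and -0.43 in resting B lineage cells, and with TMM scaling the B lineage ratio was -0.20 (-0.39 to -0.024). The difference between the types was not tested, since each age had 1 library. The stromal gate also differed in make-up, with 38 of 512 aged and 104 of 171 young cells Chad-positive. Within the Chad-positive cells Cdkn1b reached 80.1 CPM among aged and 52.2 CPM among young cells, and in the other Dcn cells 98.7 CPM among aged and 43.4 CPM among young cells.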

How the results depend on the processing

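Of 185 alternative values of the main results, 160 stayed within the spread allowed and 25 moved. Levels, shares and counts of pairs have no direction to change, and none of the ratios among the main results changed sign. Where 1000 genes were required and 10% mitochondrial UMIs allowed, Cdkn2b in aged neutrophils was 69.3 CPM and the aged Rb1 log2 ratio of B lineage over neutrophil cells was 2.03, against 95.6 CPM and 3.64 as reported. At 1000 UMIs per cell, Cdkn2b was present in 8.59% of aged and 0% of young neutrophils, Cdkn2a in 0.473% of aged and 0.208% of young cycling cells, and Cdkn1c in 17.0% of aged stromal cells. With means of per-cell CPM, Cdkn2a in young cycling cells was 2.56 CPM, Cdkn1c was 243 CPM in aged and 249 CPM in young stromal cells, the young Cdkn2c ratio of cycling over resting B lineage cells was 3.66, and the aged Cdkn1b ratio of B lineage over neutrophil cells was 1.23. Without the deepest 5% of cells these were 246 CPM for aged Cdkn1c, 3.79 for young Cdkn2c and 1.22 for aged Cdkn1b, and with marker thresholds doubled the last was 0.29, against 0.86 as reported. Without the cell with the most counts, young stromal Cdkn1c was 128 CPM. Among surrogate light chain cells the Cdkn2c ratio was 0.97 in the aged and 2.34 in the young library. The 9 pairs higher in the aged library became 15 with no count minimum. The 2 lower pairs became 4 with thresholds doubled, and 1 without the deepest cells, with TMM, with DESeq2 scaling and with at least 100 counts. Of 218 alternative values of the 24 single ratios, 193 stayed, 24 moved, among them Cdkn1c in stromal cells (-0.037 with means of per-cell CPM against 0.14), and 1 ratio whose interval excluded 0 changed sign, Cdkn1b in neutrophils, which was -0.022 at 1000 genes and 10% mitochondrial UMIs against 0.29 as reported. Ratios whose interval included 0 also changed sign, such as Cdkn1c in resting B lineage cells (-0.13 as reported, 1.03 with mixed cells kept) and Cdkn2c in T cells (0.24 as reported, -0.21 with means of per-cell CPM). The cause of these changes was not tested. No value could be had for the first B gate with thresholds doubled. No paired analysis was possible because each age had 1 library and the labels give no replicate numbers.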

Other observations

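Cells of the same type could hold both members of a pair. In aged cycling cells 602 of 1061 had UMIs of both Cdkn2c and Cdkn1b, and in young cycling cells 1033 of 1442. Cdkn2a was seen with Cdkn2c in 56 of 64 aged and 34 of 40 young cycling cells with Cdkn2a, where Cdkn2c was present in 860 of 1061 aged and 1197 of 1442 young cycling cells. In aged plasma cells 32 had Cdkn2a, 65 had Cdkn2b and 6 had both. Cells with UMIs of Cdkn1c and Cdkn1b were 100 of 512 aged and 32 of 171 young stromal cells.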
